A study of Mus musculus with 5 samples.

Results

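At 1 h after kainic acid had brought on seizures, the mouse hippocampus held far more RNA of the activity-regulated transcription factor genes Npas4, Fosb, Fos, Egr2 and Atf3, each at least 83.6 times its level in the untreated control. Kainic acid is an agonist of glutamate receptors of the kainate class that drives excitatory neurons into seizures. The comparison described here rests on 2 of the series' 5 libraries, chosen by their labels: the kainic acid 1 h library and the untreated control library. The remaining libraries, 2 at 4 h (mouse 1 and mouse 2) and 1 at 8 h after seizure onset, are given beside them as further values only.

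All animals were male C57/bl6 mice aged 3 months. The paper places its experiments in the dark phase at identical time points. It does not give the clock time at which each library was collected. Treated animals received kainic acid at 20 mg/kg by intraperitoneal injection, and the control is labelled as untreated, with a time of 0 h. Hippocampi were dissected and total RNA was made into strand-preserving sequencing libraries. With 1 library on each side there is no replicate check on any difference between 1 h and control, no test was made, and the labels of these libraries do not say how many mice each holds.

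The control library held 19100374 counts on genes and the 1 h library 17744508. The libraries at 4 h held 18250114 in mouse 1 and 19109204 in mouse 2, and the library at 8 h held 16612225. Levels are given as CPM, the counts of a gene scaled to a fixed library total of counts on genes. Values of the 4 h pair are given in the order mouse 1, mouse 2. A gene was tested, in the sense of being compared, when it had at least 50 counts in the control or the 1 h library, which corresponds to 2.62 CPM in the control and 2.82 CPM at 1 h. Counts under 3 were raised to 3 before a ratio was taken. A gene is said to have risen or fallen when its CPM ratio was at least 2 or at most 0.5. Intervals are exact 95% intervals of the ratio that cover counting error only, and not the spread between animals. They were taken from the counts before any were raised to 3.

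The first wave of transcription after strong neuronal activity is made of immediate early genes, which are transcribed without new protein synthesis because the factors that switch them on, such as CREB, SRF and its ETS-family partners, already sit in the cell and are activated by calcium and kinase signals. Many of their products are transcription factors that switch on later genes, while others act at synapses directly or shut the signal off again. Their messenger RNAs are usually short-lived, so that levels fall back quickly once transcription stops.

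Marker genes placed the control and 1 h libraries in the same tissue. The 6 markers of dentate granule cells summed to 454 CPM in the control and 433 CPM at 1 h, and the 5 markers of CA1 pyramidal cells to 432 and 385 CPM. The 6 markers of CA3 and CA2 pyramidal cells gave 215 and 218 CPM, and the 7 interneuron markers gave 544 and 572 CPM. Hippocampal neuron markers were therefore present at similar sums on both sides, and none of them passed the fold. Pan-neuronal markers summed to 5460 and 5410 CPM, astrocyte markers to 3890 and 3880 CPM, and microglial markers to 290 CPM in both libraries. Oligodendrocyte markers stood at 3480 and 4130 CPM, those of oligodendrocyte precursors at 102 and 103 CPM, those of endothelial cells at 108 and 98.5 CPM, and those of pericytes and smooth muscle at 138 and 126 CPM.

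The libraries stood apart in tissue of the ventricle. The 5 choroid plexus markers (Ttr, Folr1, Kl, Clic6 and Kcnj13) summed to 4160 CPM in the control, 1680 at 1 h, 26.9 at 4 h in mouse 1, 4220 at 4 h in mouse 2 and 3260 at 8 h. The 1 h library thus held 0.403 times the control's sum, and the 4 h library of mouse 1 held almost none. Ttr, the transthyretin gene and the most abundant of the 5, had 3900, 1560, 15.1, 3930 and 3040 CPM in the same order, and no marker was at 0 in the control or at 1 h. Markers of the meninges summed to 75.5 CPM in the control and 41.1 CPM at 1 h, and those of the ependyma to 16.4 and 10.8 CPM. Blood markers gave 141 and 112 CPM and striatal markers 45.5 and 35.6 CPM. Markers of thalamus and habenula stood at 35.4 and 35.0 CPM, against 205 CPM at 4 h in mouse 1 and 87.4 CPM at 4 h in mouse 2. Most of each of these sums was Prkcd alone, at 28.2, 28.8, 184 and 78.1 CPM in the same order. In whole tissue, fewer cells of a type and less RNA per cell cannot be told apart.

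Of 13707 genes tested, 332 rose at least 2-fold at 1 h (2.42%) and 144 fell at least 2-fold (1.05%). Of the same genes, 118 rose at least 4-fold (0.861%), and 2 fell at least 4-fold. Rises thus outnumbered falls at both folds, whereas a fold of 1.5 gave 647 rises and 696 falls. A floor of 10 counts gave nearly equal numbers, 771 rises and 760 falls. The floor can be passed through the 1 h library alone, and with at least 50 counts asked of the control, 189 of 13408 genes rose (1.41%) and 144 fell. The middle of the distribution moved little: the median log2 ratio was -0.08 and the range from the 5th to the 95th percentile ran from -0.59 to 0.56. For scale, the 4 h libraries, which share a condition, differed from each other at least 2-fold upward in mouse 1 at 451 of 13772 genes (3.27%) and downward at 379 (2.75%). The number of genes past the fold at 1 h was thus below that between libraries of the same condition.

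Depth set how well a ratio was known. The counting interval lay wholly above 2 for 217 of the risen genes and wholly below 0.5 for 22 of the fallen ones. Genes whose higher count was between 50 and 200 numbered 3583 and gave 146 rises and 110 falls. Among the 633 genes with 5000 counts or more there were 27 rises and 2 falls, the latter being Ttr and Enpp2. Falls were therefore concentrated at low counts, while rises occurred at every level.

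**Figure D1:**
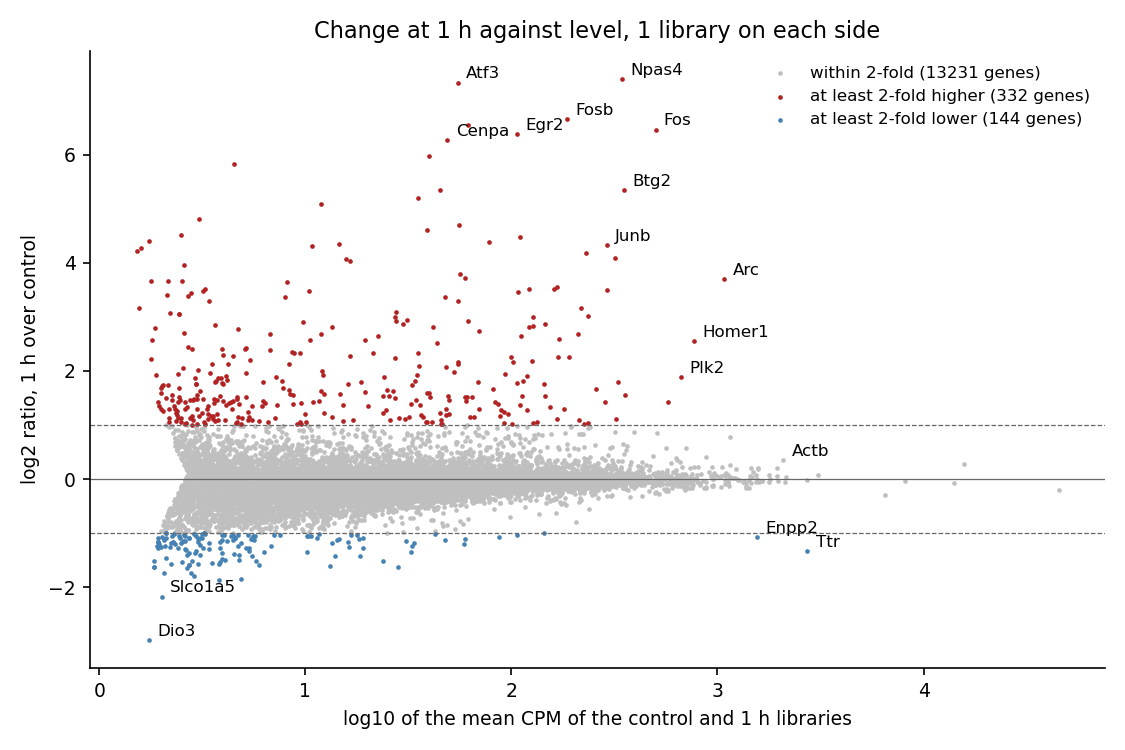
Each point is a gene tested, placed by the log10 of its mean CPM in the control and 1 h libraries and by its log2 ratio of 1 h over control, with dashed lines at 2-fold. The 332 risen genes reach a log2 ratio of 7.40 at Npas4 and the 144 fallen genes reach -2.97 at Dio3.

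The largest rise was that of Npas4, a neuron-specific bHLH-PAS transcription factor that links calcium entry to the formation of inhibitory synapses. Npas4 stood at 4.08 CPM in the control, 688 at 1 h, 120 and 4.87 in the 4 h pair (mouse 1, mouse 2), and 5.42 at 8 h. Only the 1 h library and mouse 1 at 4 h were high, and the remaining treated libraries lay close to the control. The ratio at 1 h was 168 (135 to 213), a log2 ratio of 7.40. Npas4 is a gene of 6 exons on the minus strand at chr19:4984355-4990316. The 4 h pair differed by a log2 ratio of 4.62 at this gene, which is the widest upward gap between those libraries among the genes tested.

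Gene lists follow, and each count of members that rose or fell is to be read beside the 2.42% and 1.05% of all genes tested that did. These counts include members that passed the floor through the 1 h library alone. Egr2, Gem and Pim1 are of this kind, with 48, 26 and 27 counts in the control. AP-1 is the dimer of a FOS and a JUN protein that binds the sequence TGANTCA in promoters and enhancers. Of 9 list members, 6 passed the count floor and all 6 rose (Fosb, Fos, Junb, Fosl2, Jun and Jund), with a median log2 ratio of 3.51 against -0.08 for all genes tested. The list's medians in the other libraries, against the same control, were 2.55 and 1.30 in the 4 h pair and 0.40 at 8 h. Fos had 11.3 CPM in the control, 990 at 1 h, 479 and 69.7 in the 4 h pair and 18.2 at 8 h, a ratio at 1 h of 87.9 (76.9 to 101). Its relative Fosb, whose short splice form is a long-lived protein, had 3.66, 369, 220, 59.6 and 10.3 CPM, a ratio of 101 (79.5 to 129). In both genes the 1 h library was the highest of the 5 and every treated library lay above the control. Junb, the JUN partner with the largest rise, went from 27.4 to 552 CPM and was at 148, 37.6 and 18.5 CPM afterwards, below the control at 8 h. Fosl2 went from 56.1 to 363 CPM, Jun from 50.2 to 188 CPM and Jund from 26.8 to 63.1 CPM, log2 ratios of 2.69, 1.90 and 1.23. In the control, Fosb was the lowest of the 6 and Fosl2 the highest. Fosl1, Batf and Batf3 were under the count floor, with 3, 5 and 13 counts in the control and 7, 3 and 8 at 1 h.

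The EGR genes encode zinc finger factors that bind the GC-rich sequence GCGNGGGCG, and the NAB proteins are their corepressors. All 6 members of this list passed the floor and 5 rose (Egr2, Egr4, Egr3, Egr1 and Nab2), with a median log2 ratio of 2.90. Egr2 stood at 2.51 CPM in the control, 210 at 1 h, 18.3 and 3.87 in the 4 h pair and 1.26 at 8 h, a ratio of 83.6 (62.9 to 114). It was highest at 1 h, still above the control at 4 h in mouse 1, and lower at 8 h than in the control. Egr4 rose from 4.14 to 107 CPM, a ratio of 25.8 (20.6 to 32.7), and Egr3 from 28.6 to 227 CPM, a ratio of 7.93. Egr1, the member most often used as a marker of activity, had the smallest ratio of the 4 factors. It went from 30.4 CPM, the highest control level among them, to 213 CPM, a ratio of 7.02 (6.43 to 7.67). Nab2 went from 30.6 to 62.0 CPM, a log2 ratio of 1.02, while Nab1 had a log2 ratio of 0.26. The list's medians elsewhere were 1.74 and 0.47 in the 4 h pair and -0.28 at 8 h.

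The NR4A genes encode orphan nuclear receptors that act without a known hormone and are used by neurons as immediate early factors. All 3 rose, with log2 ratios of 4.09 for Nr4a1, 3.01 for Nr4a2 and 2.59 for Nr4a3. Nr4a1 had 35.2 CPM in the control, 600 at 1 h, 151 and 34.3 in the 4 h pair and 22.7 at 8 h. It was high at 1 h, intermediate in mouse 1 at 4 h, and at or under the control in the others. Nr4a2 had 52.0, 420, 238, 60.3 and 19.3 CPM in the same order, a little above the control at 4 h in mouse 2 and below it at 8 h. The list's median log2 ratio was 3.01 at 1 h and -0.92 at 8 h, so the receptors ended below the control library.

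Of the 10 members of the list of ATF, CREB, CEBP and small MAF factors, all passed the floor and 6 rose, with a median log2 ratio of 1.28. Of these, Atf3 and Maff passed the floor through the 1 h library alone, each with 13 counts in the control. Atf3, a stress-induced bZIP repressor also known from injured axons, had 0.681 CPM in the control, 109 at 1 h, 131 and 53.8 in the 4 h pair and 4.70 at 8 h. Unlike Npas4 it was higher still at 4 h in mouse 1 than at 1 h, and it lay above the control in every treated library. Its ratio at 1 h was 161 with a wide interval (93.7 to 302), since the control count was 13. Maff, a small MAF protein that lacks an activation domain, rose from 0.681 to 23.2 CPM, a ratio of 34.0 (19.7 to 64.5). Nfil3, a repressor bZIP factor tied to the clock, rose from 7.22 to 55.3 CPM, and Mafk from 9.58 to 29.2 CPM. Crem, whose short product ICER represses CREB targets, had a log2 ratio of 1.53, and Cebpb one of 1.03. Creb1 itself, the pre-existing factor, stood at 99.2 and 91.5 CPM, a log2 ratio of -0.12, and Atf4 at 95.1 and 159 CPM, a log2 ratio of 0.74.

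The lists around SRF and the Kruppel-like factors each had 2 of 11 tested members past the fold, all rises, against 2.42% of all genes tested that rose. SRF is the factor that binds the CArG box of many immediate early promoters, and it is itself a target. Srf rose from 40.4 to 98.6 CPM, a log2 ratio of 1.29, and so did the cytoskeletal target Vcl, from 54.2 to 121 CPM. The pair are the risen genes of that list, whose median was 0.33. Of the exon bases of Vcl, 25.5% lie under exons of Ap3m1 on the opposite strand, and the strand setting of the counting is unknown, so that reads of the partners cannot be told apart. Actb, the most abundant SRF target of the list, stood at 1840 and 2340 CPM, a log2 ratio of 0.35. Among the Kruppel-like factors, Klf4 rose from 3.19 to 20.6 CPM and Klf2 from 3.09 to 6.76 CPM, with a list median of 0.31. Klf4 stood at 6.41 CPM at 4 h in mouse 1, and was back at 2.93 CPM at 4 h in mouse 2 and at 2.29 CPM at 8 h.

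In the list of bHLH and bHLH-PAS factors with the ID and HES proteins, Npas4 rose and Hes5 fell among 12 tested, where 2.42% and 1.05% of all genes tested did, and the median of -0.08 equalled that of all genes. Hes5, a Notch target that keeps progenitors undifferentiated, had 109 counts in the control and 35 at 1 h, a log2 ratio of -1.53 (ratio 0.346, 0.229 to 0.510). It was also lower in mouse 1 than in mouse 2 at 4 h, by a log2 ratio of -1.28. Of its exon bases, 31.8% lie under Gm20421 on the opposite strand. Hes1, the other classical Notch target, had a log2 ratio of 0.97, just inside the fold.

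**Figure D2:**
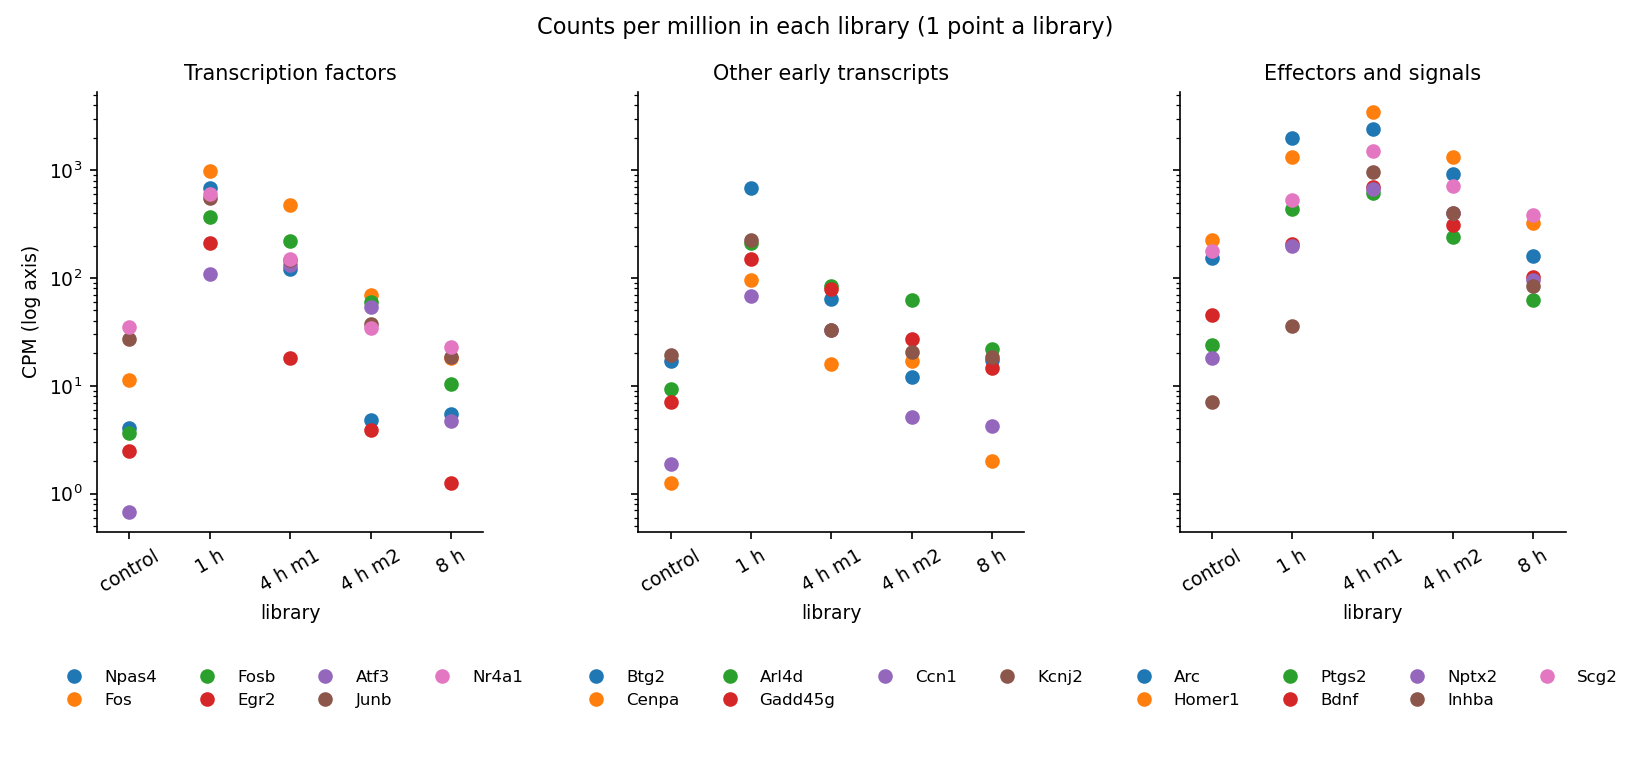
CPM on a log axis in the 5 libraries (m1 and m2 are mouse 1 and mouse 2 at 4 h), 1 point a library, for transcription factors, other early transcripts, and effectors and signals. Npas4 reads 4.08, 688, 120, 4.87 and 5.42 CPM from left to right, whereas Bdnf reads 45.4, 206, 696, 313 and 102 CPM and is highest at 4 h in mouse 1.

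Outside the transcription factors, the largest coding rises were of mixed function. Cenpa, the centromeric histone H3 variant, had 24 counts in the control, 1713 at 1 h, 291 and 324 in the 4 h pair and 33 at 8 h. It was high at 1 h, similarly raised in both 4 h libraries, and lowest of the treated libraries at 8 h, with a ratio at 1 h of 76.8 (51.5 to 120). Btg2, an antiproliferative protein that recruits deadenylases to messenger RNA, had 16.9, 684, 63.3, 12.1 and 17.3 CPM. Here 1 h alone stood far above the rest, and the ratio was 40.4 (36.2 to 45.3). Ccn1, a secreted matrix protein also called CYR61, rose from 1.88 to 68.6 CPM. Apold1, an endothelial early response gene, rose from 3.09 to 75.1 CPM, and the early response gene Ier2 from 1.88 to 31.0 CPM. Plaur, the urokinase receptor, had 3 counts in the control and 54 at 1 h, a ratio of 19.4 (6.29 to 96.9). Col6a4, a collagen VI chain gene, had 6 and 86 counts and was at 93 counts at 8 h, the highest of its 5 libraries.

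The list of other immediate early genes had 14 members tested, of which 11 rose and none fell, with medians of 1.96 at 1 h, 1.83 and 0.64 in the 4 h pair and 0.18 at 8 h. Of the risen members, Ier2, Ier3, Myc, Amigo3 and Ccn1 passed the floor through the 1 h library alone, with 33 to 47 counts in the control. Beside Ccn1 and Ier2, the list's largest rises were Amigo3, a leucine-rich repeat adhesion protein, at 1.73 and 19.2 CPM, and Arl5b, a small GTPase of the Golgi, at 43.6 and 392 CPM. Their log2 ratios were 3.48 and 3.17. The list's related growth regulator Ccn2 stood at 16.9 and 19.4 CPM, a log2 ratio of 0.20, so the sister genes Ccn1 and Ccn2 differed at 1 h.

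Of 16 MAP kinase feedback inhibitors tested, 6 rose and none fell, against 2.42% and 1.05% of all genes tested, with a median of 0.62. Errfi1, an inhibitor of EGF receptors, went from 47.3 to 535 CPM, a log2 ratio of 3.50. Dusp1, a nuclear phosphatase that inactivates MAP kinases, had 8.43 CPM in the control, 87.1 at 1 h, 35.5 and 8.27 in the 4 h pair and 5.78 at 8 h. It was high at 1 h and was back at the control's level in mouse 2 at 4 h. Dusp5, nuclear and selective for ERK, rose from 18.1 to 121 CPM, and Dusp6, its cytoplasmic counterpart, from 65.7 to 315 CPM, with log2 ratios of 2.74 and 2.26. Of the exon bases of Dusp5, 22.1% lie under a gene on the opposite strand. Dusp4 and Spry2 rose by log2 ratios of 1.60 and 1.94. The members Dusp7, Spry1, Spred1 and Spred3 lay between log2 ratios of -0.29 and 0.15.

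Among inducible kinases and pseudokinases, 7 of 13 tested rose and none fell, with a median of 1.67. Pim1, a constitutively active serine kinase, went from 1.41 CPM to 14.6 at 1 h and then 48.7 and 15.6 in the 4 h pair and 4.76 at 8 h, so that mouse 1 at 4 h was higher than 1 h. Trib1, a pseudokinase that directs degradation of its targets, rose from 5.81 to 49.6 CPM. Sik1, a salt-inducible kinase that restrains CREB coactivators, rose from 14.4 to 109 CPM. Plk2, which lowers synaptic strength after prolonged activity, was the most abundant and rose from 284 to 1050 CPM, a ratio of 3.71 (3.60 to 3.82). The narrow interval follows from its high counts.

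Small GTPases and regulators of G protein signalling gave 6 rises among 16 tested, with a median of 0.60. Arl4d, a GTPase of the ARF family, had 9.42 CPM in the control, 210 at 1 h, 84.7 and 63.1 in the 4 h pair and 21.9 at 8 h. All 4 treated libraries lay above the control, and the ratio at 1 h was 22.2 (19.1 to 26.0). Gem, which inhibits voltage-gated calcium channels, rose from 1.36 to 27.8 CPM, a ratio of 20.5. Rasl11a and Rgs2 rose by log2 ratios of 2.99 and 2.87, and Rgs4, a brake on Gq and Gi signals, from 148 to 512 CPM. Rheb, the GTPase that activates mTORC1, rose from 75.2 to 217 CPM, a log2 ratio of 1.53.

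**Figure D3:**
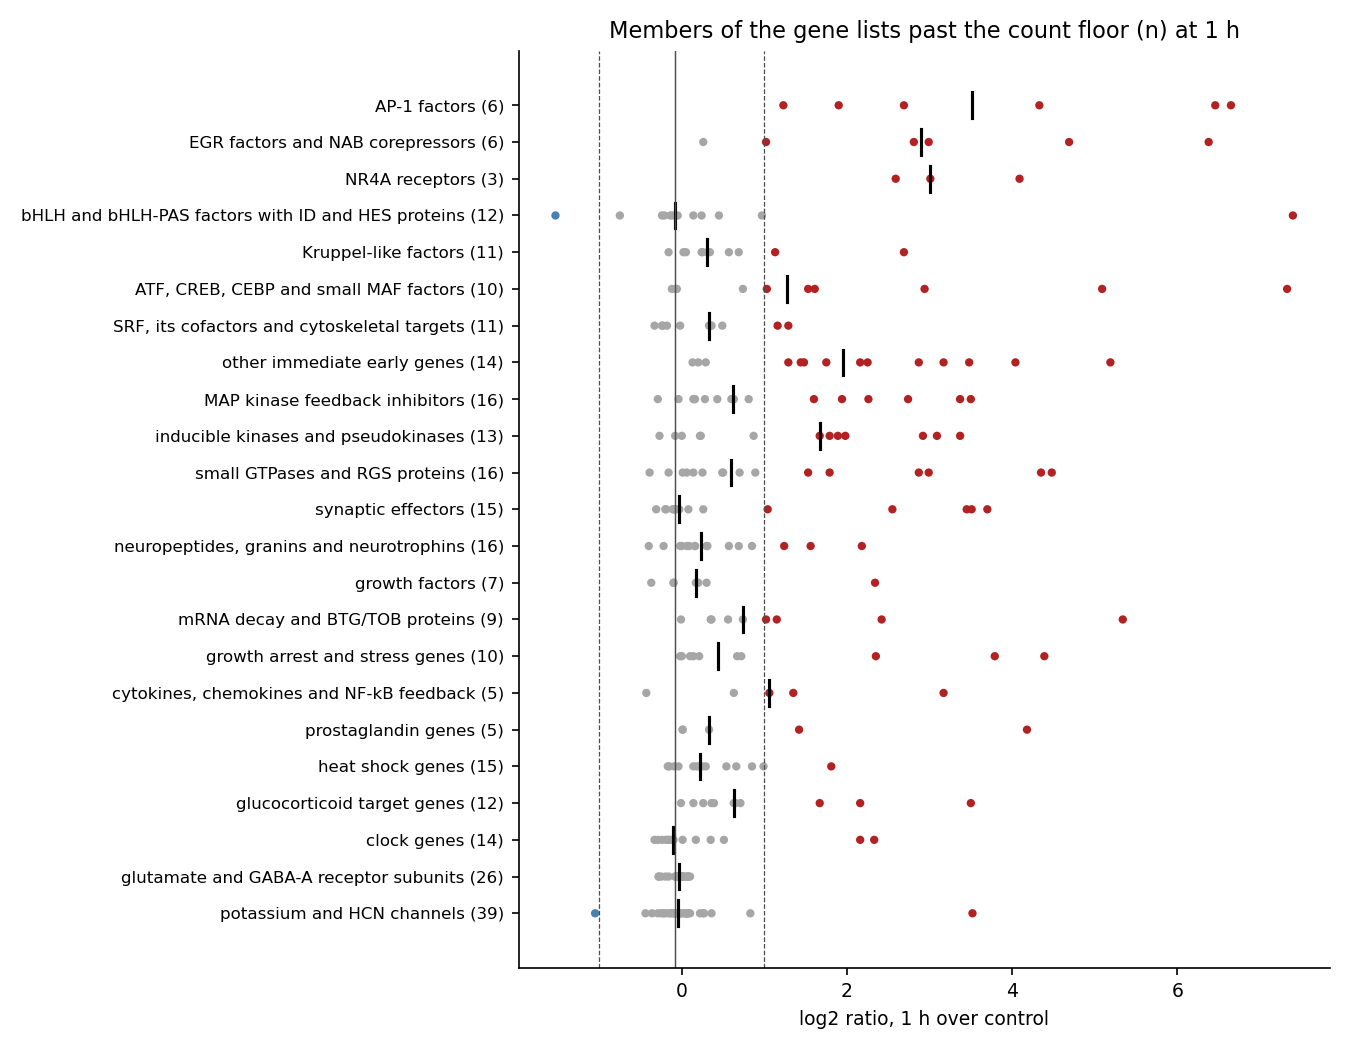
Log2 ratio of 1 h over control for each member of 23 gene lists that passed the count floor (1 point a gene, number tested in brackets, bar at the list median, solid line at the median of all genes, -0.08). All 6 AP-1 members lie right of the 2-fold line, and all 26 glutamate and GABA-A receptor subunits lie within 2-fold.

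The synaptic effector genes split into a few that rose and a majority that did not. Of 15 tested, 5 rose (Arc, Pcdh8, Nptx2, Homer1 and Nrn1) and none fell, and the median of -0.03 lay near that of all genes. Arc, whose protein removes AMPA receptors from the synapse, had 154 CPM in the control, 2000 at 1 h, 2390 and 918 in the 4 h pair and 160 at 8 h. It was about as high at 1 h as in mouse 1 at 4 h and had returned to the control's level at 8 h, with a ratio at 1 h of 13.0 (12.5 to 13.5). Pcdh8, a protocadherin also called arcadlin that pulls cadherins from the surface, had 26.1, 296, 404, 313 and 102 CPM. Nptx2, a secreted pentraxin that gathers AMPA receptors on interneurons, had 18.0, 197, 665, 398 and 94.9 CPM, so that both 4 h libraries exceeded 1 h. Homer1, a scaffold with a short activity-induced form, went from 226 to 1320 CPM. The scaffold genes Dlg4 and Shank1 and the kinase gene Camk2a did not pass the fold: Dlg4 stood at 350 and 324 CPM, Shank1 at 77.1 and 81.5 CPM and Camk2a at 1500 and 1420 CPM.

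Of 16 neuropeptide, granin and neurotrophin genes tested, 3 rose at 1 h (Bdnf, Scg2 and Pcsk1) and 13 did not, against 2.42% of all genes tested that rose, with a median of 0.23, and the medians at 4 h were 0.79 and 0.49. Bdnf, the neurotrophin most tied to activity, had 45.4 CPM in the control, 206 at 1 h, 696 and 313 in the 4 h pair and 102 at 8 h. Scg2, a granin of dense-core vesicles, had 180, 532, 1520, 708 and 384 CPM. Both were raised at 1 h and higher at 4 h in both mice. Pcsk1, the prohormone convertase, rose from 54.9 to 130 CPM, while the peptide genes Npy, Sst and Cck had log2 ratios of 0.16, -0.22 and 0.00. Of 7 growth factor genes tested, 1 rose, beside the same 2.42% of all genes: Inhba, a subunit of activin, from 7.07 to 35.7 CPM, against 963 and 398 CPM at 4 h. Areg, an EGF receptor ligand, was under the floor with 3 counts in the control and 48 at 1 h, a ratio of 17.2 (5.55 to 86.4).

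Ptgs2, the inducible cyclooxygenase COX-2 that makes prostaglandins, had 24.1 CPM in the control, 438 at 1 h, 620 and 242 in the 4 h pair and 61.9 at 8 h, a ratio at 1 h of 18.2 (16.5 to 20.0). It was high from 1 h on and still above the control at 8 h. Ptges, which completes synthesis of prostaglandin E, rose from 25 to 62 counts, a ratio of 2.67 (1.65 to 4.43). These were the 2 risen genes of 5 tested in the prostaglandin list, where Ptges passed the floor through the 1 h library alone. The constitutive enzyme Ptgs1 stood at 13.1 and 13.2 CPM.

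Cytokine genes were mostly at the limit of detection: 14 of 19 list members were under the count floor. Of the 5 tested, Il1a, Nfkbiz and Socs3 rose, against 2.42% of all genes tested. Il1a, an alarm cytokine, had 6 counts in the control and 50 at 1 h, so that it passed the floor through the 1 h library alone, with a ratio of 8.97 (3.84 to 25.6). Under the floor, the chemokine genes Ccl7, Cxcl1 and Ccl2 had 0 counts in the control and 26, 25 and 18 counts at 1 h. With the control's 0 raised to 3, their ratios were 9.33, 8.97 and 6.46. These ratios follow from that setting and are not lower bounds. Il1b had 2 and 32 counts, a ratio of 11.5 with the 2 raised to 3. Its interval, from the counts as they are, was 4.39 to 148. Ccl3 and Ccl4, the macrophage inflammatory proteins, had 9 and 14 counts at 1 h against 208 and 221 at 4 h in mouse 1. These transcripts were thus few at 1 h and had 0 to 3 counts in the control.

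Genes of RNA decay, growth arrest and stress moved in part. Of 9 mRNA decay and BTG/TOB genes tested, 4 rose (Btg2, Zfp36, Zfp36l2 and Btg1), with a median of 0.74. Zfp36, tristetraprolin, which destroys messages with AU-rich elements, rose from 31 to 154 counts, a log2 ratio of 2.42. This gene passed the floor through the 1 h library alone. Of 10 growth arrest and stress genes tested, 3 rose: Gadd45g, Gadd45b and Cdkn1a. Gadd45g had 7.12 CPM in the control, 149 at 1 h, 79.2 and 27.2 in the 4 h pair and 14.6 at 8 h, and Gadd45b had 7.54, 105, 140, 71.4 and 22.0 CPM. Both act in stress signalling and active DNA demethylation, and both stood above the control in every treated library. Their relative Gadd45a had a log2 ratio of 0.72, and Cdkn1a, the cell cycle inhibitor p21, rose from 2.83 to 14.4 CPM. Of 15 heat shock genes tested, Dnajb1, a cochaperone, rose, from 50.7 to 178 CPM, and the others did not, where 2.42% of all genes tested rose. Of the others, Hspa1a stood at 5.03 and 7.95 CPM and was at 86.4 CPM at 4 h in mouse 1.

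The lists of clock and glucocorticoid target genes share Per1, which rose. Per1, which carries response elements for both CREB and the glucocorticoid receptor, had 37.4 CPM in the control, 167 at 1 h, 68.3 and 42.4 in the 4 h pair and 19.1 at 8 h. Ciart, a repressor of the clock also called Chrono, had 11.7, 58.7, 17.1, 7.54 and 2.83 CPM. Both were highest at 1 h and lowest at 8 h. They were the 2 risen genes among 14 clock genes tested, against 2.42% of all genes tested, and the list median was -0.11. Per2, Arntl and Nr1d1 had log2 ratios of 0.51, -0.15 and -0.24. Of 12 glucocorticoid targets, Errfi1, Per1 and Sgk1 rose, beside the same share of all genes, with a median of 0.64. Fkbp5, a standard readout of that receptor, stood at 74.8 and 74.4 CPM.

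None of 26 glutamate and GABA-A receptor subunits tested passed the fold, with a median of -0.03, where 2.42% of all genes tested rose and 1.05% fell, so that a list of this size would hold few such genes. The kainate receptor genes Grik2 and Grik5 had log2 ratios of -0.05 and -0.06, and Gria1, the most abundant subunit per length in the list, stood at 956 and 953 CPM. Of 39 potassium and HCN channel genes, Kcnj2 rose and Kcng1 fell, close to those shares, with a median of -0.04. Kcnj2, the inward rectifier Kir2.1 that holds the resting potential, had 19.4 CPM in the control, 223 at 1 h, 33.3 and 20.6 in the 4 h pair and 18.4 at 8 h, a ratio of 11.5 (10.3 to 12.8). The 1 h library stood far above the other libraries. Kcng1, a silent subunit that modifies Kv2 channels, went from 14.3 to 6.93 CPM, a log2 ratio of -1.05 that moved to -0.98 with either of 2 other normalizations.

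Per kilobase of merged exon, Arc at 1 h stood at 655 CPM per kb, rank 10 of 12409 coding genes tested, against 50.3 CPM per kb in the control. Fos stood at 421 CPM per kb, rank 22, against 4.79. Btg2, Junb and Plk2 followed at 249, 240 and 234 CPM per kb, and Npas4 stood at 166, rank 96, against 0.987 in the control. The 118 genes that rose 4-fold held 0.158% of all counts on genes in the control and 1.64% at 1 h. Their share was 1.54% and 0.629% at 4 h and 0.216% at 8 h.

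Read across the libraries, which are all set against the same single control, the 332 risen genes had median log2 ratios of 1.61 at 1 h, 1.53 at 4 h in mouse 1, 0.63 at 4 h in mouse 2 and 0.37 at 8 h. For the 118 the median log2 ratios correspond to ratios over the control of 8.01 at 1 h, 5.65 and 2.21 in the 4 h pair and 1.44 at 8 h, so that mouse 1 at 4 h stayed nearer to 1 h than mouse 2. The 4 h libraries were not alike for them: 128 of the 332 stood at least 2-fold higher in mouse 1 than in mouse 2, and 2 at least 2-fold lower. Among all genes tested at 1 h, 320 of 13707 stood at least 2-fold higher in mouse 1.

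The 81 protein-coding genes among the 118 had a median span of 8750 bp and 4 exons, against 27600 bp and 8 exons for the 12409 coding genes tested. Of them, 59.3% had 4 exons or fewer, against 27.4% of all coding genes, and 53.1% spanned under 10000 bp, against 21.6%. The 201 risen coding genes had a median span of 11600 bp, and the 117 fallen ones 15500 bp, both with a median of 5 exons. Of these, 49.3% and 43.6% had 4 exons or fewer and 43.8% and 35.9% spanned under 10000 bp, so that fallen genes were also shorter than all coding genes tested. Long exceptions that rose were Mlip at 250889 bp and Fam107b at 211655 bp, with log2 ratios of 1.11 and 1.74. Exon counts are of the longest annotated transcript, and these medians are descriptions with no test.

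Promoter sequences for 65 of the 118 symbols (65 of the 81 coding genes) were matched in RefSeq's GRCm38.p6 annotation, as windows of 300 bases from 250 before to 50 after a transcript start. Motifs were searched on both strands. The CArG box, bound by SRF, was in 8.14% of the 86 windows of these genes, against 1.25% of the windows of all genes tested and 1.63% of all 32851 windows. The 7 windows with it belong to 4 genes, with overlapping windows of a gene counted separately, and 4 of them are of Egr2. Without Egr2 the box was in 3 of 81 windows (3.70%), and counted by gene it was in 4 of 65 (6.15%), against 153 of 10129 of all genes tested (1.51%). TGACGTCA, the full site of CREB and ATF proteins, was in 10.5% against 3.08% and 1.79%. GCGNGGGCG was in 17.4% against 10.9% and 5.55%, TATAAA in 18.6% against 7.02% and 13.6%, and TGANTCA, the AP-1 site, in 8.14% against 4.79% and 7.81%. Of the 109 windows of genes that fell, 1 held the CArG box (0.917%), 3 held TGACGTCA (2.75%) and 8 held GCGNGGGCG (7.34%). The shares of the CArG box and TGACGTCA were close to those over all genes tested, and that of GCGNGGGCG was below. TATAAA was in 13 windows (11.9%) and TGANTCA in 7 (6.42%), both above the share over all genes tested. A match describes the letters of a window and shows no binding.

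Stretches around such matches are shown for Egr2, Btg2, Maff, Arl4d, Errfi1 and Dusp1, since these genes rose at least 10.3-fold and their matches lie outside annotated exons. Capitals mark the CArG box in Egr2 and TGACGTCA in the others, and each is read 5′ to 3′ on the gene's strand in GRCm38.p6. Egr2 is at chr10:67537469-67537528 on the plus strand, with the box 72 bases before a RefSeq transcript start. Distances of the others are also from a RefSeq transcript start. Btg2 is at chr1:134079289-134079346 on the minus strand, 166 bases before the start, Maff at chr15:79347466-79347519 on the plus strand, 29 before, Arl4d at chr11:101665490-101665540 on the plus strand, 26 before, Errfi1 at chr4:150854994-150855051 on the plus strand, 51 before, and Dusp1 at chr17:26508583-26508640 on the minus strand, 143 before. The stretches of Egr2, Maff, Errfi1 and Dusp1 lie within the longer spans that these genes have in GENCODE.
Egr2: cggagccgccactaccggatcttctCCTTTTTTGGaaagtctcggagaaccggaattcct
Btg2: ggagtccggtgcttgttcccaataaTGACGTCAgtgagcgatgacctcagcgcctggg
Maff: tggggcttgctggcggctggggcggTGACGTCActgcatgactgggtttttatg
Arl4d: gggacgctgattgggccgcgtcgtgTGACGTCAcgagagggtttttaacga
Errfi1: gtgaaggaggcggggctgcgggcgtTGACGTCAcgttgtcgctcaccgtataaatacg
Dusp1: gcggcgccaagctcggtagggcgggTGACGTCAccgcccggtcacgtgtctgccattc

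A microRNA locus was among the largest rises. The long transcript 1700016P03Rik (chr11:75172560-75177633, plus strand) contains the hairpins of Mir212 (chr11:75173388-75173478) and Mir132 (chr11:75173682-75173747), a CREB-regulated pair that promotes dendrite growth. The mature miR-212-3p and miR-132-3p are shown because they share their seed, bases 2 to 8, which is in capitals. They lie at chr11:75173443-75173464 and chr11:75173723-75173744 in RefSeq's GRCm38.p6.
miR-212-3p: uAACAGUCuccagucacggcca
miR-132-3p: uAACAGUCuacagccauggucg

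1700016P03Rik had 41 counts in the control, 1553 at 1 h, 620 and 286 in the 4 h pair and 68 at 8 h. Mir212 had 3, 157, 28, 20 and 4 counts, and Mir132 had 4, 104, 59, 29 and 7. In all 3 entries 1 h was the highest library and 8 h the lowest of the treated ones, still above the control in counts, with ratios at 1 h of 40.8 (29.9 to 57.0), 56.3 (18.9 to 276) and 28.0 (10.6 to 105). The reads come from total RNA and thus count the primary transcript over each hairpin, not the mature microRNA. Of the exon bases of 1700016P03Rik, 74.3% lie under Ovca2 on the opposite strand, which had 238 counts in the control and 142 at 1 h.

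Rises were frequent among entries of the GENCODE class TEC, transcribed regions of mostly single exons whose status awaits experiment. Of 446 TEC entries tested, 89 rose (20.0%), against 201 of 12409 protein-coding genes (1.62%). Many of these entries passed the floor only through the 1 h library: with at least 50 counts asked of the control, 29 of 337 TEC entries rose (8.61%), against 148 of 12295 coding genes (1.20%). Falls were more frequent in the class too, at 11 of 446 (2.47%) against 0.943% of coding genes, and at 3.26% against 0.952% with the floor asked of the control. Of all genes whose higher count was between 50 and 200, 4.07% rose. In all, 131 of the 332 risen entries were not protein-coding, and 102 of these (77.9%) lay inside the span of a coding gene on the same strand. Among entries with neither rise nor fall, 381 of 1138 did (33.5%). Within class TEC the gap was smaller, at 81 of 89 risen entries (91.0%) and 275 of 346 with neither (79.5%). Over all 488 entries tested that lay inside a coding gene, risen or not, the median log2 ratio was 0.40, and that of the hosts, tested for 476 of the entries, was 0.03. These shares and medians include entries that passed the floor through the 1 h library alone. They were not recounted with the floor asked of the control. Of the 102, 12 had a host that rose. Of the 102, 97 shared no exon base with the host, as did 372 of the 381 entries with neither rise nor fall. The 361 TEC entries inside a coding gene had median log2 ratios of 0.44 at 1 h, 0.62 and 0.00 in the 4 h pair and 0.36 at 8 h. Reads on no gene made up 24.7% of all entries of the counting in the control, multiply aligned reads included, 29.0% at 1 h, 33.1% and 25.3% in the 4 h pair and 30.9% at 8 h. In both, mouse 1 at 4 h was the highest and mouse 2 the lowest of the treated libraries. The floor used the 1 h library, so the order of 1 h and 8 h is not compared. Whether the composition of the reads has a part in these rises was not tested. An own transcript and unspliced RNA of the host cannot be told apart from these counts.

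Some of these entries were among the strongest rises of all. Gm47075 and Gm47088, both inside Homer1, had 25 and 24 counts in the control, 2167 and 1399 at 1 h, and 138 and 88 at 4 h in mouse 1. Their ratios at 1 h were 93.3 (63.0 to 145) and 62.7 (42.0 to 98.3). Homer1 itself had 4322 counts in the control, 23438 at 1 h, 63378 and 25524 in the 4 h pair and 5379 at 8 h. The inner entries thus peaked at 1 h, while the counts of the host gene were highest at 4 h in mouse 1. Gm38257 inside Arl5b also peaked at 1 h, with 20, 366, 28, 17 and 22 counts. Unlike Homer1, its host Arl5b was highest at 1 h too, with 832, 6947, 3709, 1255 and 759 counts. C630044B11Rik, inside the BDNF receptor gene Ntrk2, had 23, 268, 53, 17 and 29 counts, whereas Ntrk2 had a log2 ratio of 0.31. The synaptic scaffold gene Dlg2 held 5 risen entries with a log2 ratio of its own of 0.00, and Picalm, an endocytosis adaptor, held 4 with 0.31. Mir1938 and Gm17024 lie inside Ifrd1, an early response gene with a log2 ratio of 2.83, and Gm25363 lies inside Rheb. Of the exon of Mir1938, 54.0% lies under a gene on the opposite strand. Gm43290, inside Smim14, had 2 counts in the control and 52 at 1 h, a ratio of 18.7 with the 2 raised to 3. Its interval, from the counts as they are, was 7.37 to 237.

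**Figure D4:**
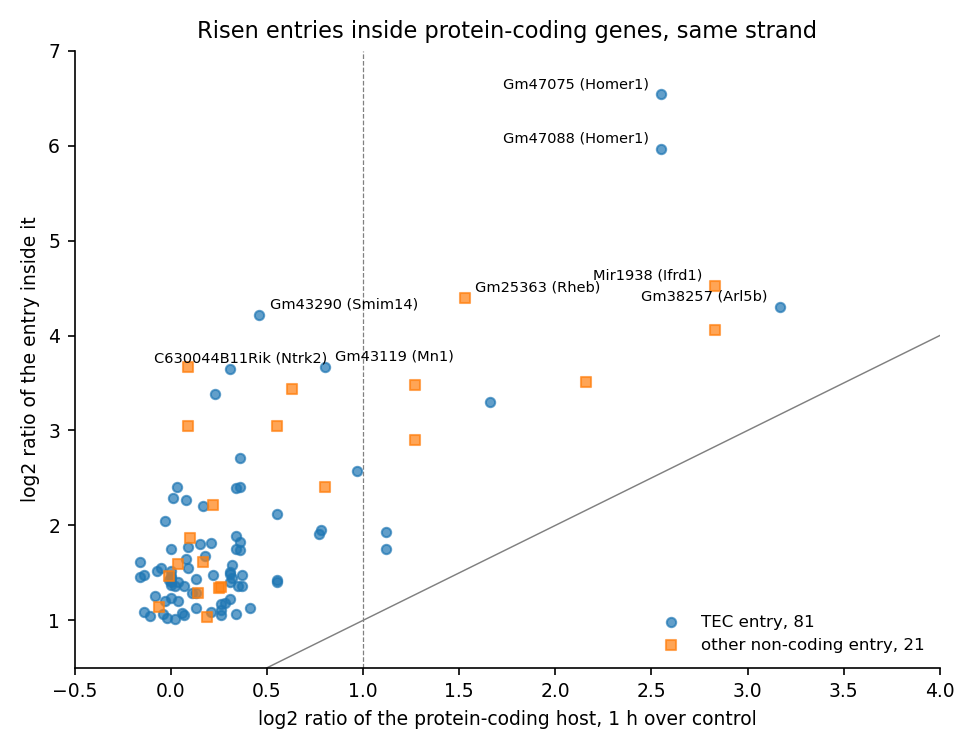
Log2 ratio of 1 h over control of each of the 102 risen non-coding entries (81 of class TEC) against that of the coding gene it lies in, with the line of equality and a dashed line at 2-fold for the host. Gm47075 stands at 6.54 with its host Homer1 at 2.55, and 12 entries lie right of the dashed line.

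The genes that fell were fewer than those that rose and smaller in their change, and they held 0.792% of the control's counts on genes, against 0.630% for the 332 risen genes. Ttr, at 3900 CPM in the control, and Enpp2 made up most of the fallen genes' share. The 144 had a median log2 ratio of -1.18 at 1 h and of -1.37, -0.30 and -0.27 at 4 h in mouse 1, at 4 h in mouse 2 and at 8 h. The deepest fall was in Dio3, the deiodinase that inactivates thyroid hormone, with 59 counts in the control, 7 at 1 h, 8 and 16 in the 4 h pair and 1 at 8 h. All 4 treated libraries lay far below the control, and the ratio at 1 h was 0.128 (0.0492 to 0.280). Slco1a5, an organic anion transporter, had 63 counts in the control, 13 at 1 h, 2 and 38 in the 4 h pair and 23 at 8 h. These were the 2 genes that fell at least 4-fold. Clec2d, a C-type lectin-like ligand, had 146, 38, 137, 135 and 133 counts, so that 1 h alone was low, with a ratio of 0.280 (0.191 to 0.403).

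Many of the falls shared the gap that the choroid plexus markers had between the 4 h libraries. Of the 144 fallen genes, 64 (44.4%) were also at least 2-fold lower in mouse 1 than in mouse 2 at 4 h, against 2.52% of all genes tested, and 49 were at least 4-fold lower. Tmem72, Kcne2, a potassium channel subunit, and Folr1 are of this kind. Tmem72 had 812 counts in the control, 245 at 1 h, 8 and 723 in the 4 h pair and 608 at 8 h. Kcne2 had 381, 117, 3, 283 and 375 counts, and the homeobox gene Otx2 had 281, 103, 15, 328 and 194. In each, mouse 1 at 4 h was lowest, 1 h next, and the control, mouse 2 and 8 h were higher, as in the marker sums of 4160, 1680, 26.9, 4220 and 3260 CPM for control, 1 h, mouse 1, mouse 2 and 8 h. Enpp2, which makes lysophosphatidic acid, had 2100, 1000, 170, 2300 and 1750 CPM. Of the 20 deepest falls, 11 had this gap between the 4 h libraries, namely Slco1a5, Rbm47, Inka1, Lmx1a, Crhr2, Krt8, Tmem72, Kcne2, Prcd, Msx1 and Col4a4. Without the 64 genes, 80 falls were left. The part of choroid plexus content in the falls was not tested.

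The deepest falls with no such gap included Tacr3, Tfap4 and Vgll3, all at low counts. Tacr3, the neurokinin B receptor, had 101 counts in the control, 32 at 1 h, 46 and 38 in the 4 h pair and 4 at 8 h. Tfap4, a bHLH factor, and Vgll3, a cofactor of TEAD proteins, had 53 and 109 counts in the control and 16 and 34 at 1 h. All 3 were lower than the control in every treated library. Outside the 20 deepest falls, Dcn, the meningeal marker decorin, went from 46.8 to 20.6 CPM beside the lower sum of its marker list. The non-coding entries Fbxl12os, B130024G19Rik, 4732416N19Rik and Gm38178 had between 53 and 86 counts in the control, and 26.9%, 7.51% and 24.4% of the exon bases of Fbxl12os, B130024G19Rik and 4732416N19Rik lie under genes of the opposite strand.

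**Figure D5:**
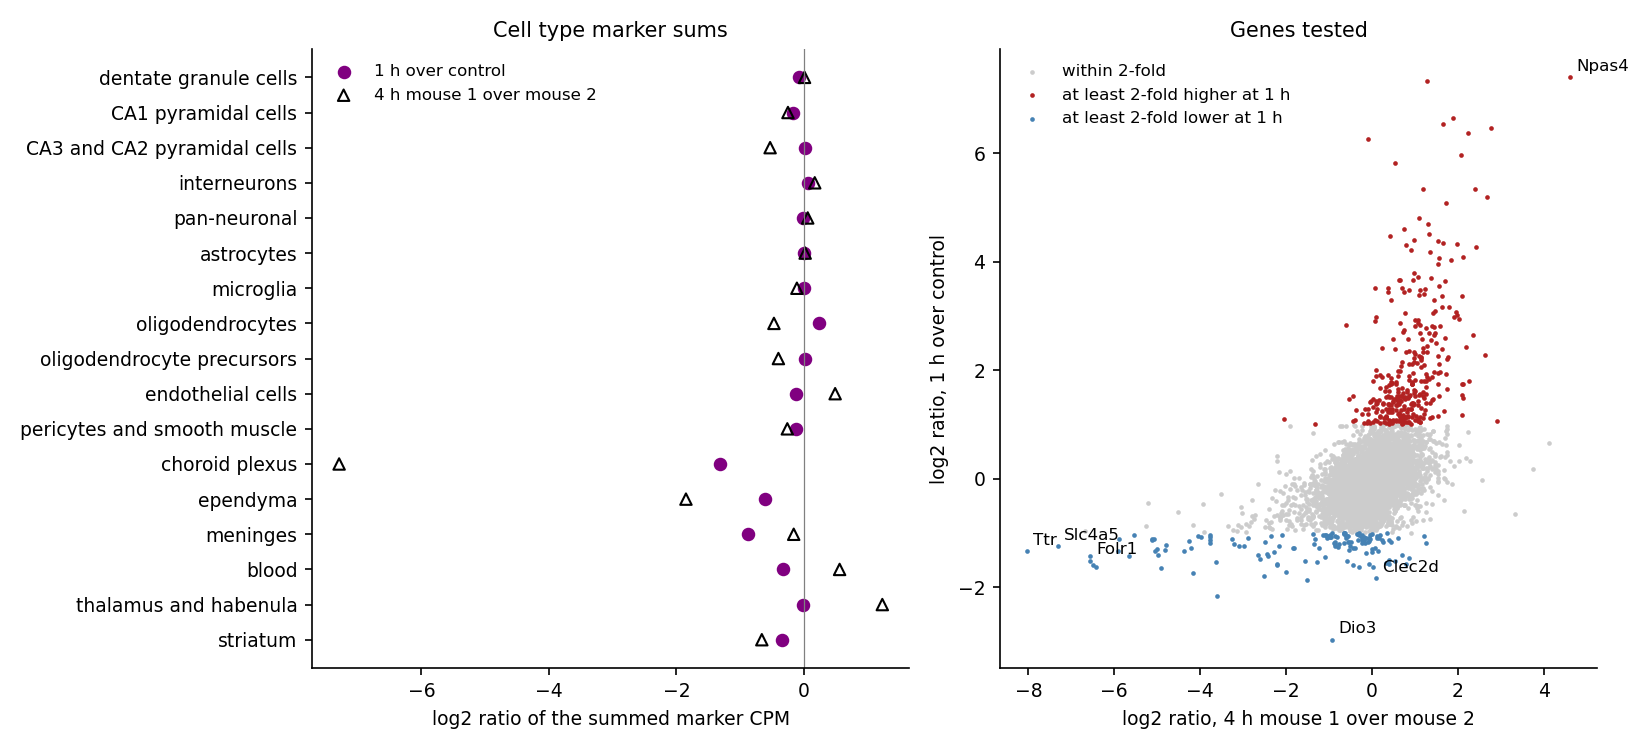
Left, log2 ratio of the summed marker CPM for 17 cell types, 1 h over control (filled) and mouse 1 over mouse 2 at 4 h (open). Right, each gene tested by its log2 ratio between the 4 h libraries and at 1 h. Choroid plexus markers stand at -1.31 and -7.29, and 64 of the 144 fallen genes lie at least 2-fold lower in mouse 1.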

How the data were processed

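Hippocampal total RNA was sequenced by the submitters in paired-end mode. According to their processing notes, reads were aligned with STAR 2.5.1b to GRCm38.p4 and counted per gene with HTSeq. For the annotation release and the strand setting of the counting, no source used here gives them. The deposited values are whole-number counts per gene, not normalized, for 55385 gene identifiers. The 5 summary lines of each table were left out of the totals; reads on no gene made up 24.7% of all entries, multiply aligned reads included, in the control and 29.0% at 1 h. The deposited gene counts were divided by each library's total to give CPM, and log2 ratios were taken with counts under 3 raised to 3 and a floor of 50 counts in either library. Intervals are exact (conditional binomial, Clopper-Pearson, 95%) and use the counts before any were raised to 3. The ratio step was tested on simulated data. Symbols, biotypes, spans and exons came from GENCODE M21, which held 55144 of the identifiers; 106 symbols have more than 1 identifier. Named genes are the 30 highest and 20 lowest log2 ratios, up to 4 rises and 2 falls past 2-fold in each of 23 gene lists, and the most abundant member per length; other genes were named after their values were seen (such as members set beside these, those under the floor, Enpp2, Otx2 and the host genes). The members and lists were chosen with earlier results of these data known. Alternatives were TMM (edgeR 4.0.16 in R 4.3.3), median-of-ratios factors, other floors, a prior count, other folds and subsets of genes. Python 3.11.15 with numpy 2.4.6, pandas 2.3.3, scipy 1.17.1 and matplotlib 3.10.9 was used.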

Additional observations from a re-analysis of the deposited data

Results flagged for a closer look

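Reads that fell on no gene, which enter no comparison, made up 29.0% of all entries of the 1 h library, multiply aligned reads included (exact 95% interval 29.01 to 29.04), above the control's 24.7% (24.72 to 24.75). Both intervals cover counting error only, and not the spread between animals. The other libraries stood at 33.1% and 25.3% at 4 h and 30.9% at 8 h. The cause was not tested.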

How the results depend on the processing

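Against 332 rises, 144 falls and a median of -0.08 over 13707 genes, TMM and median-of-ratios factors each gave a median of -0.01 with 366 rises and 111 falls, and leaving mitochondrial and the 50 most abundant genes out of the totals gave a median of -0.09. A floor of 10 counts gave 771 rises and 760 falls, and a floor of 200 gave 186 and 34; more or fewer genes were tested. Asking for the whole counting interval beyond 2-fold left 217 and 22. A fold of 1.5 gave 647 and 696, and a fold of 4 gave 118 and 2. Alternatives chosen after seeing the data were: without genes at least 2-fold lower in mouse 1 than in mouse 2 at 4 h, 80 falls; without genes that differ 2-fold between the 4 h libraries, 202 rises and 78 falls; protein-coding genes only, 201 rises and a median of -0.09; and at least 50 counts in the control, 189 rises and a median of -0.09. All other counts stayed within 1.5 times. For 112 named genes under 4 settings, 420 of 448 log2 ratios stayed within their counting interval. A prior count of 2 moved the log2 ratios by -0.74 to 0.30, Mir212 from 5.82 to 5.08 and Plaur from 4.28 to 3.57. Of the 100 past 2-fold, 0 changed sign; of the 12 within it, Ptgds (0.01 to -0.01 without mitochondrial and the 50 most abundant genes) and Gria1 (0.00 to 0.07 with TMM and median-of-ratios factors) did. Kcng1 alone no longer passed 2-fold, at -0.98 against -1.05, with both TMM and median-of-ratios factors. No paired analysis was possible because the control and 1 h groups have 1 library each and share only the number 1. Depth limits genes under 50 counts, where a few reads decide the ratio.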
